A study of Mus musculus with 12 samples.

Results

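The 9 interferon-stimulated genes Isg15, Ifit1, Ifit2, Ifit3, Irf7, Oasl2, Rsad2, Usp18 and Igtp were followed in the colon of mice with acute colitis. They were chosen by gene name with earlier results of these data known, and all 9 were found among the 54532 genes of the count table. A filter on low counts was passed by 16904 genes, and all 9 were among them. RNA-Seq was performed on colon tissue of male WT mice of the C57BL/6J strain, 5 weeks of age. By the labels there were 12 mice, with 3 mice in each of 4 groups. Control mice received no dextran sulfate sodium (DSS), a sulfated polysaccharide that injures the colonic epithelium. Model mice received 3% DSS, and mice of the Rhy and DXM groups received 3% DSS together with a drug. The drug was rhynchophylline (Rhy), an alkaloid of Uncaria plants, given for 7 days, or dexamethasone (DXM), a synthetic glucocorticoid, at 4 mg/kg. Rhy was used at 2, 4 and 8 mg/kg in the study, and which of these doses the sequenced mice received is not given in the sources used here.

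Interferons are secreted proteins, and cells release those of type I and type III after sensing foreign or misplaced nucleic acid. Type I and type III interferons act through receptor-bound kinases on genes that carry a DNA element called the interferon-stimulated response element (ISRE), while interferon gamma acts mainly through another element, the gamma-activated site (GAS). In the gut, microbes keep a basal level of this response, and the epithelium is the main responder to type III interferon.

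Among the members, Isg15 encodes a ubiquitin-like protein that is attached to other proteins, and Usp18 encodes the protease that removes it and also restrains the type I receptor. Ifit1, Ifit2 and Ifit3 encode proteins built of tetratricopeptide repeats, some of which bind viral RNA. Irf7 encodes a transcription factor that amplifies interferon production. Oasl2 encodes a relative of the oligoadenylate synthetases with ubiquitin-like domains, and Rsad2 encodes viperin, an enzyme that makes a chain-terminating nucleotide. Igtp encodes an immunity-related GTPase (Irg) that is induced chiefly by interferon gamma and guards against vacuolar pathogens. The 3 Ifit genes lie together at chr19:34550694-34650009 of GRCm38, a span of 99.3 kb, and the other 6 members lie on chromosomes 4, 7, 5, 12, 6 and 11.

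Levels of different genes can be compared only per length, as FPKM (fragments per kilobase of transcript, scaled to library size). The mean FPKM over the 12 libraries was highest for Isg15 (179) and Irf7 (120), followed by Ifit1 (37.6), Oasl2 (31.4), Igtp (24.8), Ifit2 (20.7), Ifit3 (14.7), Usp18 (8.21) and Rsad2 (3.69). The FPKM of single libraries overlapped between all neighbours in that order, from 44.8 to 372 for Isg15 and from 26.2 to 310 for Irf7 at its top, and from 1.29 to 18.3 for Usp18 and from 0.908 to 9.84 for Rsad2 at its bottom. Counts of Ifit3 are uncertain because 31.7% of its 100-base stretches also occur in its near copy Ifit3b, and the same share was 5.16% for Igtp with Irgm2, 3.29% for Ifit1 with Ifit1bl2 and 1.00% for Usp18 with Gm44148. Igtp also shares 162 exonic bases with Irgm2 on the same strand, and whether the counting used strand is not given in the sources used here. That leaves the 124 exonic bases of Usp18 and the 45 of Irf7 that face a gene on the opposite strand uncertain too.

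Promoters of 300 bases, from 250 before to 50 after the start of a gene, were taken from RefSeq on GRCm38.p6, and 8 of the 9 members had an entry (not Usp18). They were searched on both strands for GAAANNGAAA as the ISRE and for TTCNNNGAA as the GAS. Of 32851 mouse promoters, 3.44% held the first, 8.30% the second and 0.454% both. The ISRE letters were in 5 of the 8 members (Isg15, Ifit1, Ifit3, Rsad2 and Igtp), the GAS letters in 2 (Ifit2 and Igtp), and both in Igtp. Ifit2 had 2 entries, of which only that at chr19:34550444-34550743 held the match. A gene was counted if any of its entries matched, while the shares of mouse promoters are per entry. A match is a description of these letters, and no match says only that they are not in this window. The promoters of Isg15 (chr4:156200769-156201068, minus strand), Ifit1 (chr19:34640639-34640938, plus strand), Ifit3 (chr19:34583279-34583578, plus strand) and Igtp (chr11:58199306-58199605, plus strand) are printed 5' to 3' with the matches in capitals, as is Oasl2 (chr5:114896684-114896983, plus strand), which held no match. Isg15, Ifit1, Ifit3 and Oasl2 are shown because they did not overlap between Rhy and model, and Igtp because it correlated least with the rest. Irgm2 (chr11:58214727-58215026, plus strand), the neighbour of Igtp, is printed beside it.
Isg15: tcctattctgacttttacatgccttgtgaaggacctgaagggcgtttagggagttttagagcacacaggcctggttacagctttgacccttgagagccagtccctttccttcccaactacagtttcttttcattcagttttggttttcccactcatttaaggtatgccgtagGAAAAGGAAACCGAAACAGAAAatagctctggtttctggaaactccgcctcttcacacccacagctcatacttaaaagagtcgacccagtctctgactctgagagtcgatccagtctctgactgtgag
Ifit1: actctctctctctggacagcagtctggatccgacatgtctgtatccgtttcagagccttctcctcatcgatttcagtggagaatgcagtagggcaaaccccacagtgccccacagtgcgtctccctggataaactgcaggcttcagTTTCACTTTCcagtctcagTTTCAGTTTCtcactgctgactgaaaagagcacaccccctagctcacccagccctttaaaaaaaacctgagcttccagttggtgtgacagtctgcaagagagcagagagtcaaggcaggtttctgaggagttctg
Ifit3: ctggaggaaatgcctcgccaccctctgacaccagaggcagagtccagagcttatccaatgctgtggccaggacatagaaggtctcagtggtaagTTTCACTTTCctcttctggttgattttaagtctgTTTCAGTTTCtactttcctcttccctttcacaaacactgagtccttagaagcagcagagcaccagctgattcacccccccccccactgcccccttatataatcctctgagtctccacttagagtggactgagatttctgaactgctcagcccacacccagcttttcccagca
Oasl2: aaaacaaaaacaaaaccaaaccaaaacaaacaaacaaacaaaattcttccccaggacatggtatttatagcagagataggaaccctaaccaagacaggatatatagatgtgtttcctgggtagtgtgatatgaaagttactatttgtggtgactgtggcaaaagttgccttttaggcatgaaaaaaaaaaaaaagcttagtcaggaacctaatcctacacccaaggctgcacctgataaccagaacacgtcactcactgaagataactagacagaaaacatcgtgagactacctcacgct
Igtp: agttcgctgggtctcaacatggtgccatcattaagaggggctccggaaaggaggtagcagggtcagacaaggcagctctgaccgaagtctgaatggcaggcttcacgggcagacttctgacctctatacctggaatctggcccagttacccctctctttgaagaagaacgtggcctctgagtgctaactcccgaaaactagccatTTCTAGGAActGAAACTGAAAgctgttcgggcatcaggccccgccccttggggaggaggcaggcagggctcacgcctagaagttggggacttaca
Irgm2: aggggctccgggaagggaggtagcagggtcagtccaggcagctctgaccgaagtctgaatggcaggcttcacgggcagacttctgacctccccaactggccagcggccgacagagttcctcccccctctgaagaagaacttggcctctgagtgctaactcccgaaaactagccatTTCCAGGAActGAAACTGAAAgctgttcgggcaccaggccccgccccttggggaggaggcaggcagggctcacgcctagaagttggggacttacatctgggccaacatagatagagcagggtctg

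In Isg15, 3 overlapping ISRE matches formed a run from base 78 to base 57 before the start. Ifit1 and Ifit3 each held 2 ISRE matches on the opposite strand, at bases 104 to 95 and 85 to 76 in Ifit1 and at bases 156 to 147 and 122 to 113 in Ifit3. In Igtp a GAS match at bases 45 to 37 preceded an ISRE match at bases 34 to 25, and Irgm2 held the same pair at bases 75 to 67 and 64 to 55. Among the other antiviral interferon-stimulated genes described further on, 12 of the 30 with an entry held the ISRE letters, 7 the GAS letters and 4 both. Among interferon-gamma-responsive GTPases and chemokines the counts were 10 of 17, 6 and 5.

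Total counts were 14346478 to 17749716 per library, so that 3 counts, taken as the floor, correspond to 0.145 to 0.257 CPM. CPM, the count scaled to a common library size, is here on library sizes scaled by the trimmed mean of M values (TMM), and floors cover counting error only. The members' counts ran from 73 (Usp18 in DXM 3) to 13783 (Irf7 in Rhy 1), far above the floor. Several libraries stood apart before any comparison was made. Model 1 and model 2 resembled each other unusually closely, with a common dispersion of 0.00201 against 0.0604 to 0.351 in the other 65 pairs of libraries, though the median squared difference of their counts was 1.90 times that of counting noise, so both were kept and their sum was tried as an alternative. Whether they come from separate mice was not tested, and if they do not, the tests that use model rest on fewer mice than stated. The distal colon marker Hoxb13 was at 0.165 CPM in control 3, 1.49 CPM in model 3 and 0 in Rhy 1, against 72.0 to 316 CPM in the other 9 libraries, so that the colon pieces may differ in position. Mitochondrial transcripts took 6.33% (control 3) to 25.7% (DXM 1) of the counts, with 23.8% in Rhy 1 and 21.0% in control 1.

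The levels of most members spread widely among the 3 libraries of control and of DXM. Isg15 was at 191, 177 and 63.5 CPM in control 1, 2 and 3, at 109, 102 and 86.2 CPM in model, at 284, 256 and 155 CPM in Rhy, and at 104, 74.7 and 34.9 CPM in DXM. All 3 Rhy libraries lay above all 3 model libraries, while control spanned from below the model libraries to above the lowest Rhy library. Ifit1 was at 45.5, 268 and 98.6 CPM in control, 65.1, 62.2 and 64.9 CPM in model, 203, 133 and 117 CPM in Rhy, and 98.5, 37.8 and 13.9 CPM in DXM. Control 2 held 5.90 times the level of control 1, whereas the highest of the model libraries exceeded the lowest by 1.05 times.

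Ifit2 was at 66.0, 171 and 82.5 CPM in control, 97.4, 93.0 and 83.8 CPM in model, 201, 70.4 and 33.1 CPM in Rhy, and 31.7, 42.4 and 10.1 CPM in DXM. All DXM libraries lay below every control and model library, and Rhy spanned 6.07-fold from its lowest to its highest library. Ifit3 was at 13.6, 72.1 and 18.7 CPM in control, 13.7, 13.9 and 12.8 CPM in model, 52.4, 37.4 and 25.3 CPM in Rhy, and 30.4, 12.7 and 6.94 CPM in DXM. The model libraries were close together and below all Rhy libraries, and control 2 was the highest of the 12.

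Irf7 was at 533, 762 and 438 CPM in control, 447, 433 and 290 CPM in model, 1180, 504 and 246 CPM in Rhy, and 379, 154 and 102 CPM in DXM. Rhy held both the highest library of the 12 and a library below every model library, and all DXM libraries were below all control libraries. Oasl2 was at 234, 366 and 140 CPM in control, 193, 198 and 128 CPM in model, 392, 257 and 199 CPM in Rhy, and 175, 105 and 40.0 CPM in DXM. Rhy and model did not overlap for Oasl2, with 199 CPM in Rhy 3 against 198 CPM in model 2. The 2 scarcest members, Rsad2 at 4.05 to 42.1 CPM and Usp18 at 3.70 to 51.5 CPM, overlapped between all groups.

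Igtp was at 67.1, 64.0 and 32.3 CPM in control, 39.2, 44.5 and 62.7 CPM in model, 61.6, 49.4 and 49.2 CPM in Rhy, and 27.6, 91.4 and 20.5 CPM in DXM. Its highest library was DXM 2, which was not the highest for any other member, and DXM also held its lowest.

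**Figure D1:**
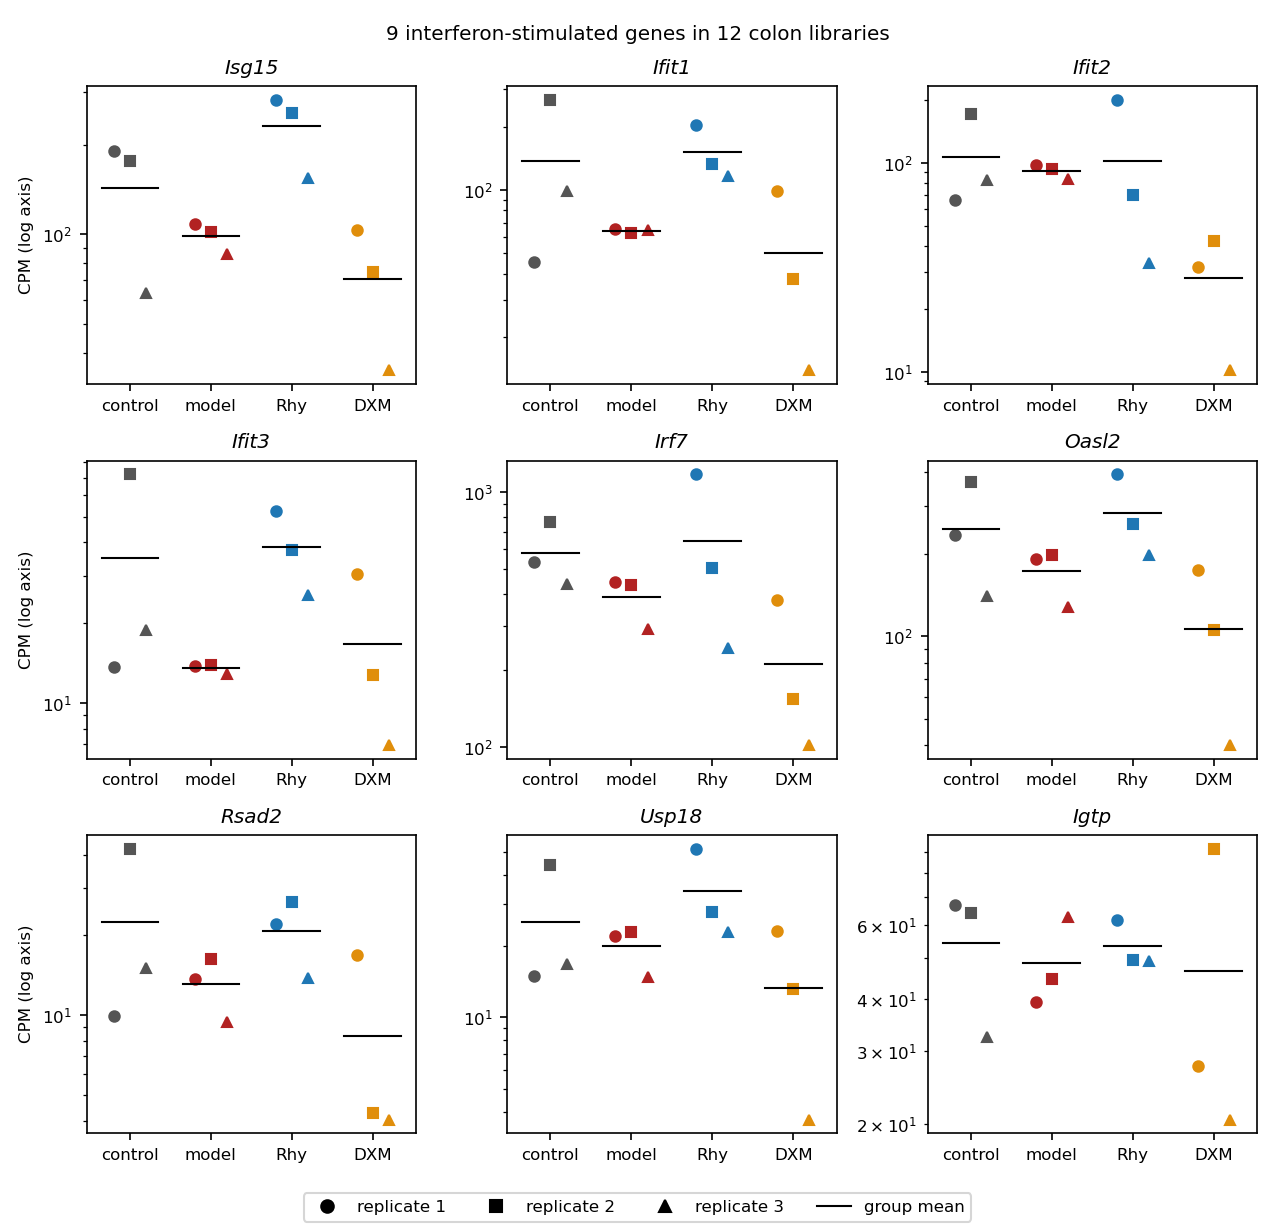
Level of each of the 9 genes in CPM (vertical log axis) in the 3 libraries of each group (symbols, by replicate) with the group mean (line). DXM 3 is the lowest library for all 9 genes, and the 3 Rhy libraries lie above the 3 model libraries for Isg15, Ifit1, Ifit3 and Oasl2.

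The order of the libraries was shared by most members. DXM 3 was the lowest of the 12 libraries for 9 of 9 members, against 11.3% of all genes. The highest library was Rhy 1 for 5 members (Isg15, Ifit2, Irf7, Oasl2 and Usp18), control 2 for 3 members (Ifit1, Ifit3 and Rsad2) and DXM 2 for Igtp, against 8.94%, 11.1% and 5.37% of all genes. Summed over the 9 members, the level was 1175, 1967 and 905 CPM in control, 999, 986 and 752 CPM in model, 2447, 1362 and 861 CPM in Rhy, and 885, 536 and 236 CPM in DXM. In these sums Rhy and control overlapped, Rhy overlapped with model through Rhy 3, and DXM overlapped with model through DXM 1. Irf7 had the most counts of the 9 members and weighs most in the sums, with 1180 CPM in Rhy 1 and 246 CPM in Rhy 3. The test of any difference among the 4 groups by edgeR's quasi-likelihood method gave its smallest p among the members for Isg15, 0.388 after Benjamini-Hochberg adjustment over all genes. That test called 0 of 16904 genes (0%) at an adjusted p under 0.05 with edgeR, 11.5% at an unadjusted p under 0.05, and 393 genes with DESeq2.

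An exact two-sided permutation test on log2 CPM, which cannot give a p under 0.1 with 3 libraries against 3, gave that smallest p for Isg15, Ifit1, Ifit3 and Oasl2 in Rhy against model, for Ifit2 in DXM against model, and for Ifit2 and Irf7 in DXM against control. It gave 0.2 or more for every other member and comparison. Over all 16904 genes the smallest adjusted p of edgeR's quasi-likelihood test with Benjamini-Hochberg adjustment was 0.459 for model against control, 0.964 for Rhy against model, 0.622 for DXM against model, 0.364 for Rhy against control and 0.0971 for DXM against control.

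The comparison of model with control asks what DSS alone did. All 9 members were lower on average in model than in control, against 49.3% of all genes, with a median log2 fold change of -0.54 for the members and 0.0064 for all genes tested. Ifit3 differed most, with a log2 fold change of -1.37 ± 0.62 (SE), or 2.58-fold lower, followed by Ifit1 at -1.10 ± 0.66 and Rsad2 at -0.77 ± 0.60, while Igtp was at -0.16 ± 0.48. Ifit3 was the only member at an unadjusted p under 0.05, which is 1 of 9 lower members against 4.51% of all genes lower and 9.62% in either direction. No member had all model libraries below all control libraries, against 6.61% of all genes. edgeR's quasi-likelihood test with Benjamini-Hochberg adjustment called 0 of the 9 members and 0 of 16904 genes (0%), with 1626 genes at an unadjusted p under 0.05 and a smallest adjusted p of 0.516 among the members (Ifit3). DESeq2 called 46 genes on all 12 libraries and 167 on only the 2 groups, with 0 members in both, and 4 genes with model 1 and model 2 as 1 library.

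The lower level in model rested largely on control 2. Without it the median was -0.11, Ifit3 was at -0.26, and Ifit2 (0.30), Rsad2 (0.070) and Usp18 (0.33) were higher in model. Without control 1 Igtp was at 0.019, and without control 3 the median was -0.83, with 2 members at an unadjusted p under 0.05. The count at an unadjusted p under 0.05 was 2 without control 1. It was 0 without any of control 2, model 1, model 2 or model 3. It was also 0 with upper-quartile scaling, with model 1 and model 2 as 1 library and without the 3 libraries low in Hoxb13. Ifit3 was still at -1.33 with upper-quartile scaling and at -1.68 without those 3 libraries, where the median was -0.69. Colon epithelial markers were lower in model for 10 of 11 genes, 3 of them at an unadjusted p under 0.05 (4.51% of all genes). The part of these markers in the members' values was not tested. In bulk tissue, fewer cells of a type and less RNA per cell cannot be told apart.

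The comparison of Rhy with model asks what differed when Rhy was given with DSS. All 9 members were higher on average in Rhy, against 48.3% of all genes, with a median log2 fold change of 0.72 for the members and -0.015 for all genes tested. Ifit3 was 2.84-fold higher (log2 fold change 1.51 ± 0.62 (SE)), Ifit1 2.35-fold higher (1.23 ± 0.66) and Isg15 2.34-fold higher (1.23 ± 0.44). Usp18, Irf7, Oasl2 and Rsad2 were at 0.77, 0.72, 0.71 and 0.66, and Ifit2 and Igtp at 0.15 and 0.13. The counts were 2 of 9 members higher at an unadjusted p under 0.05, against 1.74% of all genes higher and 3.72% in either direction, and 4 of 9 members (Isg15, Ifit1, Ifit3 and Oasl2) with all Rhy libraries above all model libraries, against 5.51% of all genes.

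edgeR's quasi-likelihood test with Benjamini-Hochberg adjustment called 0 members and 0 of 16904 genes (0%) in Rhy against model, with 628 genes at an unadjusted p under 0.05 and an adjusted p of 1.00 for every member. DESeq2 on all 12 libraries called 5 genes and 0 members. DESeq2 on only the 2 groups, an alternative chosen after seeing the data, called 44 genes and 3 members with Benjamini-Hochberg adjusted p of 0.00549 (Isg15), 0.00211 (Ifit1) and 0.000994 (Ifit3), and with model 1 and model 2 as 1 library those values were 0.155, 0.135 and 0.0616. Across all alternatives, edgeR's quasi-likelihood test and the others gave Benjamini-Hochberg adjusted p values from 0.00549 (Isg15), 0.00211 (Ifit1) and 0.000994 (Ifit3) up to 1. Over all alternatives the log2 fold changes of these 3 genes did not fall below 0.99 (Isg15), 0.96 (Ifit1) and 1.21 (Ifit3). Model 1 and model 2, which were almost alike, entered the call of these 3 members as separate mice. With the 2 as 1 library none of these 3 members was called. That version also has fewer model libraries, and why the call was lost was not tested.

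Rhy 1 carried part of the difference. Without it the median was 0.40, Ifit2 was at -0.82, Irf7 was at -0.054 and 0 members had an unadjusted p under 0.05, while Isg15 was at 1.05, Ifit1 at 0.96 and Ifit3 at 1.22. Without the 3 libraries low in Hoxb13 the median was 0.26 with 0 members at that threshold. There Ifit2 (-0.85) and Irf7 (-0.20) were lower in Rhy, while Isg15 was at 0.993, Ifit1 at 0.999 and Ifit3 at 1.21. Igtp was at -0.0064 without model 1. Leaving out model 1, model 2, model 3 or Rhy 2 left 1 member at that threshold, Isg15. Rhy 1 was also the library with the fewest B cell marker counts, with a summed level of 1.11 CPM, and with the lowest summed level of macrophage markers (77.7 CPM), and their part in the result was not tested.

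**Figure D2:**
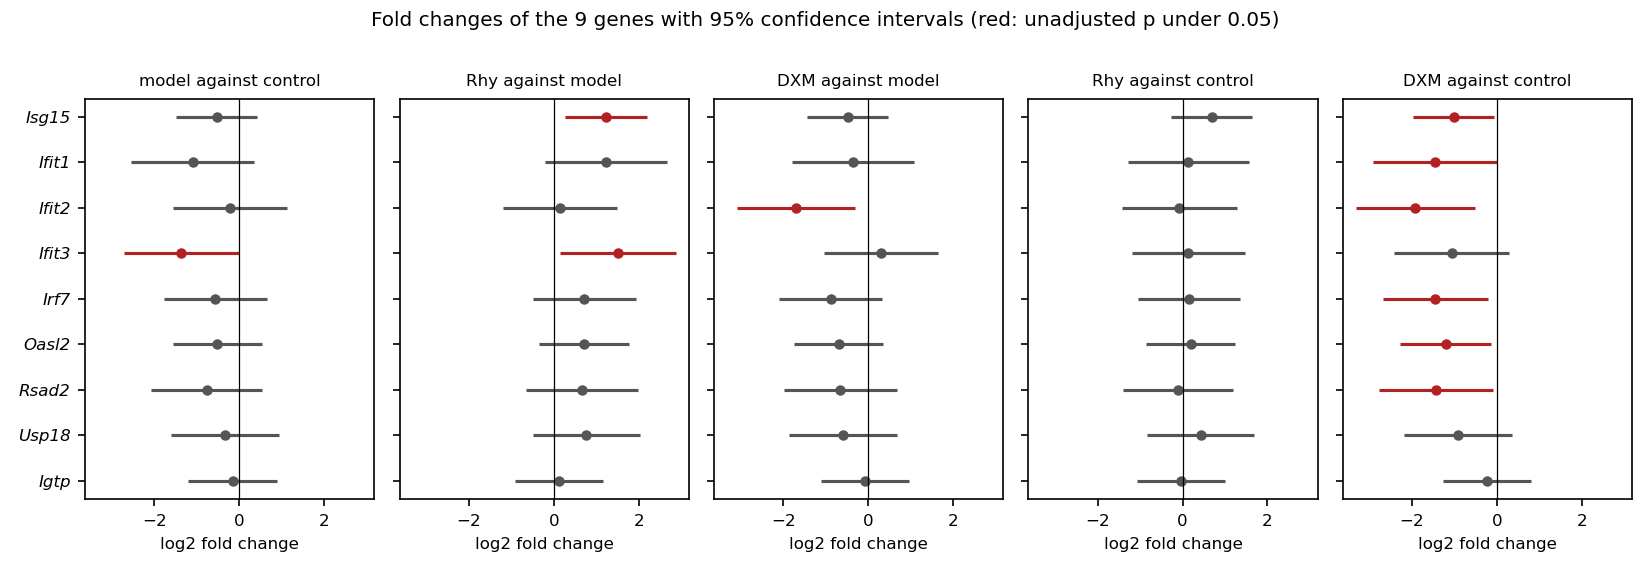
Log2 fold change of each gene (point) with its 95% confidence interval (line) in the 5 comparisons, from edgeR's quasi-likelihood fit, with red for an unadjusted p under 0.05. All points are left of 0 in DXM against control and right of 0 in Rhy against model, where Ifit2, Irf7 and Igtp turn when 1 library is left out (Igtp and Ifit3 turn also in DXM against control).

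The comparison of DXM with model asks what differed when dexamethasone was given with DSS. Of the 9 members, 8 were lower on average in DXM, against 51.5% of all genes, with a median log2 fold change of -0.58 for the members and -0.015 for all genes tested. The exception was Ifit3 at 0.30 ± 0.62 (SE). Ifit2 was 3.25-fold lower (log2 fold change -1.70 ± 0.64) with all 3 DXM libraries below all 3 model libraries, and Irf7 was 1.84-fold lower (-0.88 ± 0.56). Those counts, 1 of 9 members at an unadjusted p under 0.05 and 1 of 9 without overlap, stand against 2.80% of all genes lower at that threshold, 7.69% in either direction, and 12.2% lower without overlap. edgeR's quasi-likelihood test with Benjamini-Hochberg adjustment called 0 members and 0 of 16904 genes (0%), with 1300 genes at an unadjusted p under 0.05 and a smallest adjusted p of 0.637 among the members (Ifit2). DESeq2 called 51 genes and 0 members on all 12 libraries, and on only the 2 groups 590 genes with Ifit2 among them (Benjamini-Hochberg adjusted p = 0.00458). With model 1 and model 2 as 1 library DESeq2 called 172 genes and not Ifit2 (Benjamini-Hochberg adjusted p = 0.0828). Over all alternatives the adjusted p of Ifit2 from edgeR's quasi-likelihood test and the others, with Benjamini-Hochberg adjustment, ran from 0.00458 to 1.00.

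Without DXM 3 the median was -0.15, Ifit2 was at -1.30 with 0 members at an unadjusted p under 0.05, and Ifit1 (0.089) and Igtp (0.29) were higher in DXM. Without DXM 1 the median was -1.25 with 4 members at that threshold, Ifit3 was at -0.46 and Igtp at 0.20. Without DXM 2 the count was 2, and Igtp was at -1.02. Igtp was also at 0.17 without model 3 and at 0.0017 with upper-quartile scaling, so its direction was not settled.

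Compared with control, the DXM group had lower levels of all 9 members, against 46.2% of all genes, and a median log2 fold change of -1.21 for the members and 0.056 for all genes tested. Ifit2 was 3.79-fold lower (log2 fold change -1.92 ± 0.64 (SE)), Irf7 2.73-fold lower (-1.45 ± 0.56) and Oasl2 2.31-fold lower (-1.21 ± 0.49). Ifit1 at -1.46, Rsad2 at -1.43 and Isg15 at -1.02 were also at an unadjusted p under 0.05, and Ifit3 (-1.07), Usp18 (-0.92) and Igtp (-0.23) were not. That made 6 of 9 members lower at that threshold, against 10.2% of all genes lower and 18.9% in either direction. For Ifit2 and Irf7 all DXM libraries lay below all control libraries, 2 of 9 members against 8.89% of all genes.

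edgeR's quasi-likelihood test with Benjamini-Hochberg adjustment called 0 members and 0 of 16904 genes (0%) in DXM against control, with 3189 genes at an unadjusted p under 0.05 and a smallest adjusted p of 0.163 among the members (Ifit2). DESeq2 called 1059 genes on all 12 libraries and 395 on only the 2 groups, each with Ifit2 as the called member (Benjamini-Hochberg adjusted p = 0.0266 and 0.0231, against a range of 0.0231 to 0.510 over all alternatives). The count of members at an unadjusted p under 0.05 was 0 without control 2 and 1 without DXM 3. It was 2 without DXM 2, 8 without DXM 1 and 3 with upper-quartile scaling. Under that scaling Isg15 (-0.93), Ifit1 (-1.34) and Rsad2 (-1.31) missed the threshold, and the median was -1.12. The median stayed below 0 in each case, from -1.83 without DXM 1 to -0.59 without control 2, and Igtp turned without DXM 1 (0.042) and without DXM 3 (0.13), as did Ifit3 without control 2 (0.037). Without the 3 libraries low in Hoxb13, none of which is a DXM library, the median was -1.52 with 5 members at that threshold.

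Rhy and control showed no common direction, with 6 members higher and 3 lower, against 47.7% of all genes higher, and a median log2 fold change of 0.14 for the members and -0.027 for all genes tested. The largest difference was for Isg15 (0.69 ± 0.44 (SE)), and 0 of 9 members had an unadjusted p under 0.05, against 11.6% of all genes. edgeR's quasi-likelihood test with Benjamini-Hochberg adjustment called 0 members and 0 of 16904 genes (0%), with 1953 genes at an unadjusted p under 0.05 and a smallest adjusted p of 0.549 among the members (Isg15), and DESeq2 called 32 genes on all 12 libraries, 2 on only the 2 groups, and 0 members in both. Ifit1, Ifit2, Ifit3, Irf7, Oasl2, Rsad2 and Igtp each turned when a library was left out, for example Ifit2 to 0.45 without control 2 and Irf7 to -0.62 without Rhy 1. Without the 3 libraries low in Hoxb13 the median was -0.41 and 8 of 9 members were lower in Rhy, all but Isg15 (0.15). With control 2 left out, 1 member (Ifit3 at 1.25) had an unadjusted p under 0.05. The comparisons of model, Rhy and DXM with control share the 3 control libraries, and those of control, Rhy and DXM with model share the 3 model libraries, so their values are not independent. Side by side, the median of the members was -0.54 for model, 0.14 for Rhy and -1.21 for DXM against control, and 0.72 for Rhy and -0.58 for DXM against model.

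**Figure D3:**
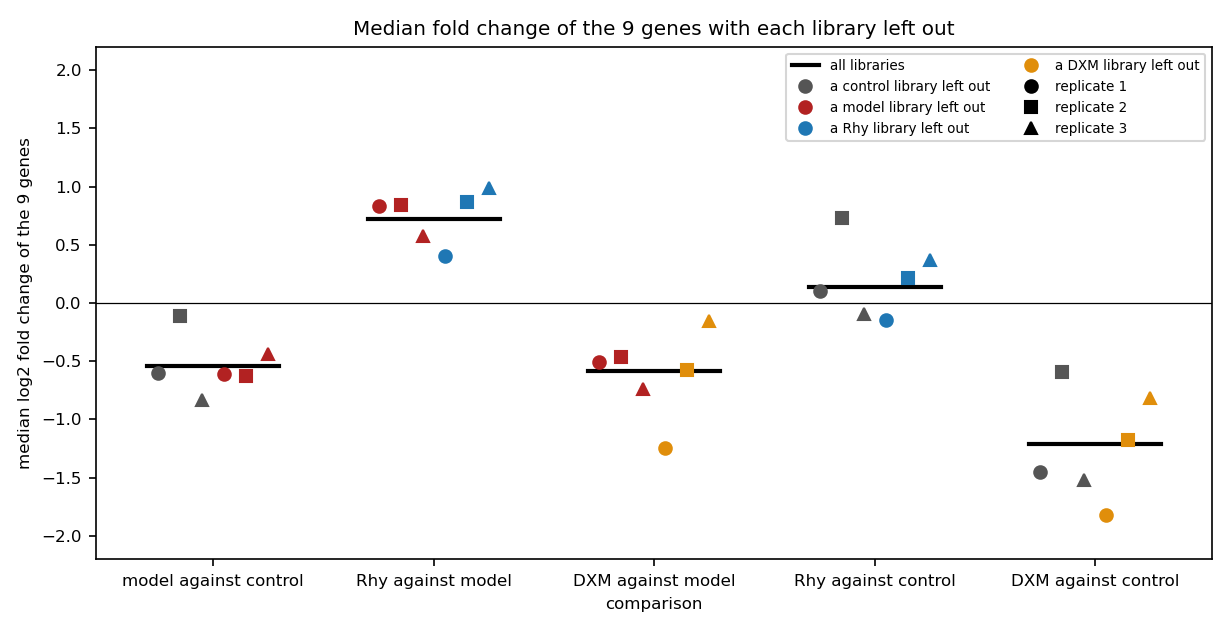
Median log2 fold change of the 9 genes (vertical axis) in each comparison with all libraries (line) and after removing 1 library at a time (symbols). Leaving out control 2 brings model against control to -0.11, and leaving out DXM 3 brings DXM against model to -0.15. Rhy against control falls on both sides of 0, from -0.14 to 0.73.

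The members differed among themselves in how closely they moved together over the 12 libraries, which share groups and tissue. Among the 8 members other than Igtp, Pearson's r of log2 CPM over 28 pairs ran from 0.602 to 0.956 with a median of 0.837, and Spearman's rho had a median of 0.741. Without Rhy 1 and DXM 3, the 2 libraries farthest from the median of the members' mean profile, the median r was 0.668 and the range 0.115 to 0.938. Igtp had r from 0.118 to 0.559 with the other 8 (median 0.392, rho 0.189), and without the same 2 libraries the median was -0.182. Those 2 libraries were picked as extremes of the same profile, so a lower r without them is built in. Within groups, with all libraries kept, the median r was 0.779 among the 8 and 0.247 for Igtp with them.

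The genes whose log2 CPM over the 12 libraries was most like the mean standardized profile of the 9 members, out of 16895 others, were Oas3 (r = 0.992, rho = 0.972), Parp9 (0.984, 0.972), Apol9b (0.977, 0.958), Apol9a (0.972, 0.846), Dtx3l (0.955, 0.811), Rtp4 (0.954, 0.930), Cystm1 (0.953, 0.818) and Rtf2 (0.948, 0.769). Without Rhy 1 and DXM 3 their r was 0.833 (Cystm1) to 0.971 (Oas3). Oas3 encodes an oligoadenylate synthetase, and Parp9 and Dtx3l encode partner proteins that act together. Oas3 was at 78.3, 192 and 74.3 CPM in control, 76.0, 80.1 and 57.0 CPM in model, 202, 99.8 and 77.1 CPM in Rhy, and 68.2, 39.4 and 14.2 CPM in DXM. Oas3 was picked for this likeness, with control 2 and Rhy 1 high and DXM 3 low.

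**Figure D4:**
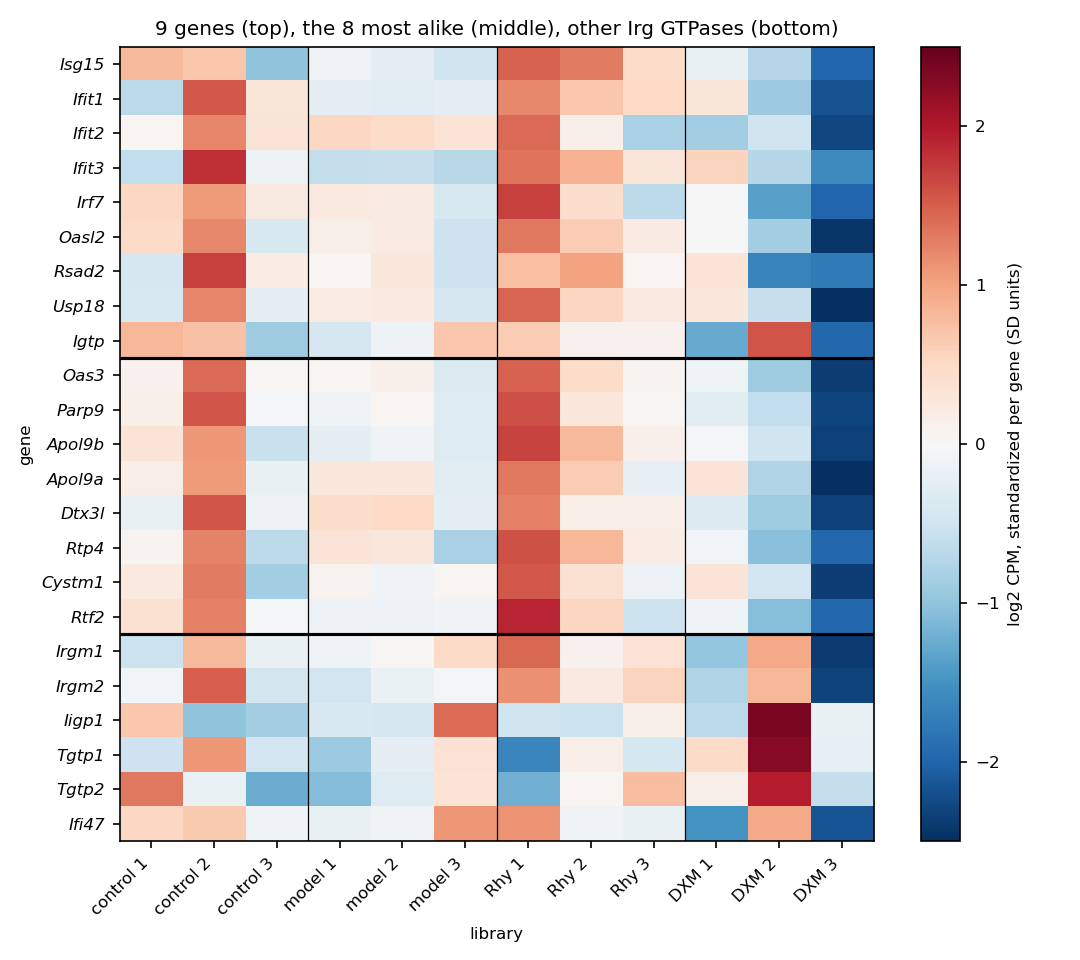
Log2 CPM standardized for each gene (color, in SD units) in the 12 libraries (columns) for the 9 genes, the 8 genes most like their mean profile and 6 other genes of the Irg GTPase family. Red in control 2 and Rhy 1 and blue in DXM 3 run through the top and middle genes, while Igtp, Iigp1, Tgtp1 and Tgtp2 are reddest in DXM 2.

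Along the pathway, the interferons themselves were too scarce at this depth to be tested. Of 21 ligand genes, 18 had 0 counts in every library, including Ifnb1, and Ifng had 13 counts, Ifnl3 6 and Ifnk 2 over all 12 libraries. All 6 interferon receptors passed the filter. In model against control 6 of 6 were lower, 3 at an unadjusted p under 0.05, among them Ifngr1 (-0.55 ± 0.23 (SE)) and Ifngr2 (-0.70 ± 0.29), the chains of the interferon gamma receptor, and in DXM against control 5 were lower, 4 at that threshold, where 4.51% and 10.2% of all genes were lower at that threshold. In Rhy against control 6 were lower, 2 at that threshold, against 11.6% of all genes in either direction. In Rhy against model 3 were higher and 3 lower, with none at that threshold.

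The relay from receptor to nucleus was followed by a list of 5 genes, which does not hold all of its genes. Of these, 5 were lower in model than in control. Among them 1, the kinase gene Jak2, was at an unadjusted p under 0.05 (-0.79 ± 0.23 (SE)), against 4.51% of all genes lower. Jak1 was at -0.0029 and Stat2 at -0.65 ± 0.34, and 0 of 5 were at that threshold in Rhy or DXM against model. The 4 brakes on the relay had 0 genes at that threshold in those 3 comparisons. In DXM against control 4 of the 5 relay genes were lower, 3 at that threshold (10.2% of all genes lower, 18.9% in either direction). Of the brakes Socs3 was higher (1.29) and Pias1 lower (-0.42), both at that threshold. Of these, Socs3, induced by many cytokines, was at 8.48 CPM (Rhy 1) to 94.2 CPM (DXM 3), with 15.1 CPM in control 3 and 20.7 CPM in model 3, Ptpn2 was at 24.4 to 35.9 CPM, and Pias1 was at -0.29 in model against control. Among 18 sensors of nucleic acid, adaptors and interferon regulatory factors, 13 were lower in model than in control, 2 of them at that threshold, and 1 was higher at that threshold. Those 2 were Tbk1, the kinase that activates interferon regulatory factors (-0.57), and Ticam1, an adaptor of Toll-like receptors (-0.67). The highest of the list by CPM, not per length, were Irf1 (-0.39) and Irf8 (0.33). In Rhy against model 10 were higher and 8 lower with 1 higher at that threshold, in DXM against model 13 were lower with 1 at that threshold (5.56%, against 2.80% of all genes), and in DXM against control 13 were lower with 7 at that threshold (38.9%, against 10.2%).

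The 4 genes that attach the Isg15 protein to targets were all higher in Rhy than in model, 2 of them at an unadjusted p under 0.05 (1.74% of all genes), and all lowest in DXM 3 (11.3% of all genes). All 4 were lower in model than in control, Ube2l6 by little (-0.044), and in Rhy against control Uba7 (-0.50) and Trim25 (-0.40) were lower, while Ube2l6 (0.88) and Herc6 (0.74), both at an unadjusted p under 0.05, and Isg15 (0.69) were higher. Herc6, a ligase of mouse Isg15, was at 16.5, 31.8 and 14.2 CPM in control, 17.9, 18.5 and 17.4 CPM in model, 47.3, 27.6 and 29.6 CPM in Rhy, and 15.4, 14.3 and 11.7 CPM in DXM. Rhy did not overlap with model, and its log2 fold change was 0.96 ± 0.30 (SE). Ube2l6, the conjugating enzyme, which was singled out after its values were seen, was at 0.92 and held 41.2 CPM in Rhy 1 against 7.60 to 16.2 CPM in all other libraries. Trim25 and the activating enzyme gene Uba7 were lower in model than in control (log2 fold changes -0.77 and -0.69) and at 0.37 and 0.19 in Rhy against model.

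Of 40 other antiviral interferon-stimulated genes, 39 passed the filter and Trex1 was listed at 0 in every library. In model against control 30 were lower and 9 higher (3 and 1 at an unadjusted p under 0.05). In Rhy against model 32 were higher and 7 lower (2 and 0 at that threshold), with a median of 0.32, and in DXM against model 32 were lower and 7 higher (8 and 3), with a median of -0.52. In DXM against control 34 were lower and 5 higher (18 and 3), with a median of -0.83. Of all genes, 4.51% were lower at that threshold in model against control, 1.74% higher in Rhy against model, 2.80% lower in DXM against model and 10.2% lower in DXM against control. DXM 3 was the lowest library for 25 of the 39, against 11.3% of all genes.

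In this list Ifi27l2a, which encodes a small mitochondrial membrane protein, was at 47.6, 122 and 27.7 CPM in control, 85.1, 83.2 and 45.3 CPM in model, 455, 194 and 100 CPM in Rhy, and 38.6, 39.3 and 56.9 CPM in DXM. Every Rhy library exceeded every model library, and the log2 fold change was 1.81 ± 0.59 (SE). Ifit1bl1, the highest of the list by CPM, was at 1.15 ± 0.42. Ifi44 was lower in DXM than in model (-1.67 ± 0.51), as was Lgals3bp (-0.83 ± 0.36). The 3 genes that were instead higher in DXM at an unadjusted p under 0.05 were named after their values were seen. They were the membrane proteins Ifitm2 (0.46) and Ifitm3 (0.75) and the exonuclease gene Isg20 (0.75). These higher genes are 7.69% of the list, and 20.5% of the list was lower at that threshold. Of all genes, 7.69% were at that threshold in DXM against model in either direction and 2.80% were lower. The 7.69% of the list is for 1 direction and that of all genes for both, so they are not like shares.

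Genes that respond mainly to interferon gamma were listed separately, and no difference between lists was tested. Of 30 GTPases, chemokines and antigen-processing genes, 28 passed the filter. In model against control 23 of 28 were lower, 2 at an unadjusted p under 0.05, and both are guanylate-binding protein genes, Gbp2b (-1.40 ± 0.51 (SE)) and Gbp3 (-0.86 ± 0.37). In Rhy against model 15 were higher and 13 lower. Of these, 2 were higher at that threshold (7.14%, against 1.74% of all genes), Gbp3 (0.83) among them. In DXM against model 16 were higher and 12 lower with 0 at that threshold. In DXM against control 19 were lower and 9 higher, with 3 lower at that threshold (10.7%, against 10.2% of all genes, and 7.14% against 4.51% in model against control). The highest by CPM, Tapbp and the proteasome gene Psmb10, were at 0.089 and 0.14 in Rhy against model. DXM 3 was the lowest library for 6 of the 28, control 1 the highest for 16 and DXM 2 the highest for 6. Of all 16904 genes, DXM 3 was the lowest for 1903, control 1 the highest for 2818 and DXM 2 the highest for 908. Summed over the list, the level was highest in control 1 (1842 CPM), followed by DXM 2 (1388 CPM), Rhy 1 (1379 CPM) and model 3 (1283 CPM), and lowest in DXM 3 (818 CPM).

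Igtp and its 6 relatives of the Irg family, taken after their values were seen, differed among themselves. Iigp1 was at 71.6 CPM in DXM 2 against 6.26 to 36.0 CPM in all other libraries, and Tgtp2 was at 6.89 CPM there against 0.329 to 3.74 CPM. Irgm2 was at 59.8 CPM in DXM 2 and 19.1 CPM in DXM 3, with its highest level, 76.4 CPM, in control 2. Irgm1 (111 CPM in DXM 2) and Ifi47 (37.2 CPM) were highest in Rhy 1, at 133 and 40.4 CPM. The 8 other members were below their lowest model library in DXM 2. The 3 DXM libraries did not share the high level, and Igtp was at 27.6 CPM in DXM 1.

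**Figure D5:**
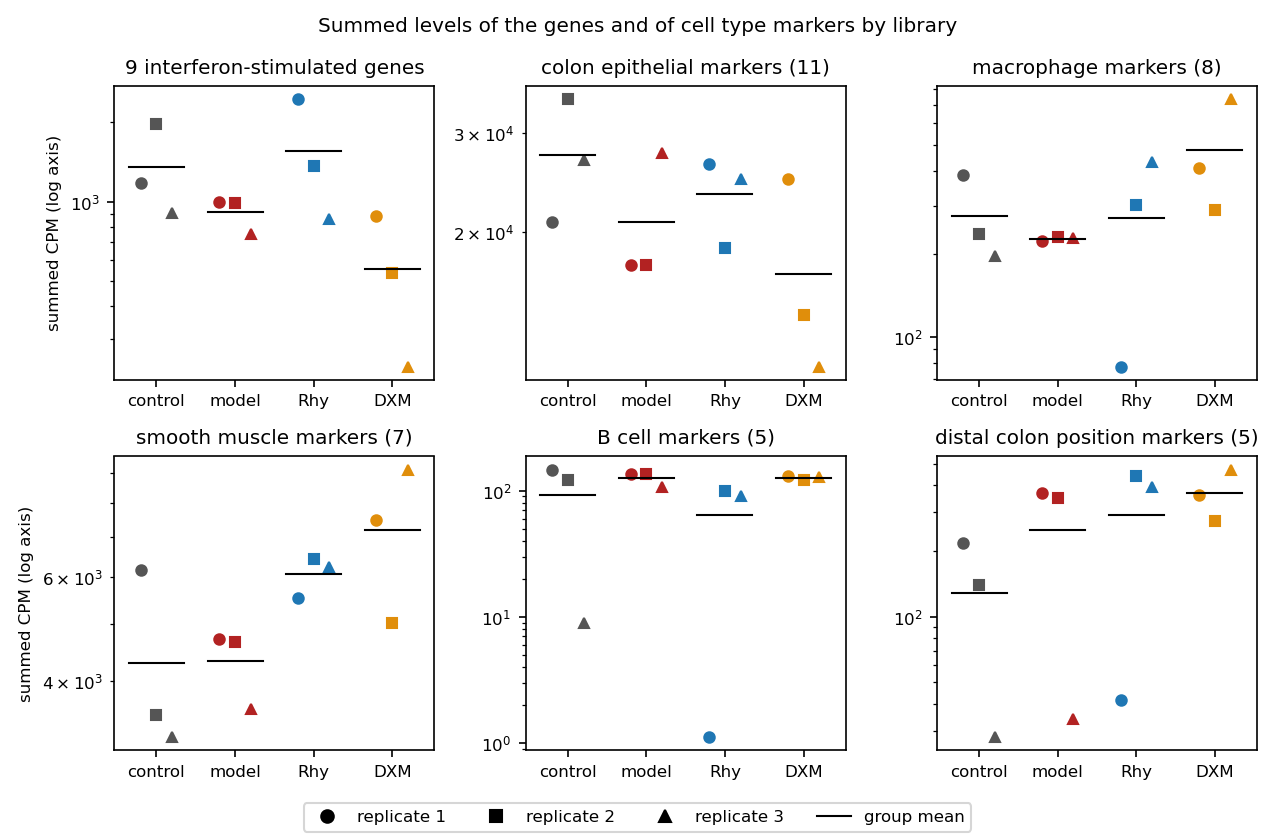
Summed CPM (vertical log axis) of the 9 genes and of 5 marker lists in each library (symbols, by replicate) with the group mean (line). Epithelial markers are lowest in DXM 3, smooth muscle and macrophage markers highest there, B cell markers near 0 in control 3 and Rhy 1, and distal colon markers low in control 3, model 3 and Rhy 1.

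Of the colon epithelial markers, 11 of 11 passed the filter. Passing it does not tell colon from other parts of the gut, which were not compared. Krt8, at 5283 to 9534 CPM, was the highest of these markers by CPM, not per length (as for the leading genes that follow). Their summed level was 20853, 34446 and 26828 CPM in control, 17451, 17477 and 27654 CPM in model, 26458, 18751 and 24874 CPM in Rhy, and 24834, 14239 and 11516 CPM in DXM. The sum was lowest in DXM 3. Car1 alone gave 17737 CPM of the sum in control 2 and 509 CPM in DXM 3, and Epcam was at 2100, 2207 and 2152 CPM in control, so the high sum of control 2 rests on 1 gene. In DXM against control 10 of 11 epithelial markers were lower, 5 at an unadjusted p under 0.05 (10.2% of all genes lower). In Rhy against model 7 were higher and 4 lower, with 0 at that threshold.

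Smooth muscle markers summed to 6168, 3511 and 3218 CPM in control, 4713, 4660 and 3585 CPM in model, 5517, 6435 and 6227 CPM in Rhy, and 7477, 5018 and 9102 CPM in DXM, with Myh11 the highest. They were higher for 7 of 7 genes in DXM against model and against control, 2 and 4 of them at an unadjusted p under 0.05, and for 7 of 7 in Rhy against model and against control, 1 in each at that threshold. Macrophage markers, led by Lyz2, summed to 388, 237 and 197 CPM in control, 223, 230 and 228 CPM in model, 77.7, 303 and 433 CPM in Rhy, and 413, 289 and 732 CPM in DXM. They were higher for 8 of 8 genes in DXM against model, 4 at that threshold, and for 8 of 8 in Rhy against model, 1 at that threshold, and lower for 7 of 8 in model against control, 2 at that threshold. At that threshold in either direction were 7.69% of all genes in DXM against model and 18.9% in DXM against control. The same shares were 3.72% in Rhy against model, 11.6% in Rhy against control and 9.62% in model against control. The part of these cell types in the members' values was not tested.

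B cell markers, led by Cd79a, summed to 146, 121 and 8.89 CPM in control, 136, 136 and 106 CPM in model, 1.11, 100 and 91.3 CPM in Rhy, and 130, 122 and 127 CPM in DXM. T and NK cell markers, led by Gzma, summed to 18.4 CPM (Rhy 1) to 74.2 CPM (control 1). Of these, 9 of 11 were lower in Rhy against model, 1 at an unadjusted p under 0.05 (3.72% of all genes in either direction). B cell markers were lower there for 5 of 5 genes, 0 at that threshold. Plasma cell markers, led by Jchain, summed to 269 CPM (model 1) to 862 CPM (DXM 3). Neutrophil markers, led by Ly6g, summed to 4.56 CPM in control 3 and 690 CPM in control 1. Ly6g alone gave 2.42 CPM of the sum in control 3 and 682 CPM in control 1, so this range rests on 1 gene. S100a8, the defining marker of that list, was at most 4.66 CPM in any library. The 5 neutrophil markers past the filter were all lower in model than in control, S100a8 at that threshold (4.51% of all genes lower). All 5 were higher in DXM than in model, again S100a8 at that threshold (7.69% of all genes in either direction). S100a8 was at 0.0552, 0.243 and 0 CPM in model, near or below the floor of 3 counts. In control it was at 3.44, 1.53 and 0.110 CPM, so control 3 was near the floor too. With model at the floor, the calls of S100a8 cannot decide whether neutrophils differed. In Rhy against model all 5 were higher, 0 at that threshold. The part of these cells in the members' values was not tested. Of the plasmacytoid dendritic cells, which make much type I interferon, the defining marker Siglech had at most 7 counts in any library, and the list's highest gene by CPM, Klk1, is not particular to them. Markers of fat cells reached 196 CPM in model 3, and markers of pancreatic acinar cells, with Cpa1 at 0 in all libraries, at most 19.3 CPM in DXM 3.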

How the data were processed

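RNA-Seq was performed on 12 colon libraries. The authors deposited counts, whole numbers of reads per gene, without normalization. Their deposited FPKM is those counts divided by gene length and scaled library size, and 262985 of 262985 values above 0 were recovered from the counts within 0.1% or 0.001 FPKM. Per the labels, the submitters' processing notes name HISAT2 2.0.5, featureCounts 1.5.0-p3, DESeq2 1.16.1 and mm10. Counts were tested with edgeR 4.0.16 in R 4.3.3 (filterByExpr with a minimum count of 10, TMM, quasi-likelihood, 4 group means in 1 fit of 12 libraries, two-sided, Benjamini-Hochberg over 16904 genes). CPM carries no prior count, and standard errors come from the F statistic. Log2 CPM for correlations used a prior count of 2. Procedures were tested on simulated data, and the outcome is not given here. Alternatives used DESeq2 1.42.0, limma 3.58.1, other scalings and filters, a replicate block and each library left out. By the labels each library is a mouse.

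The members and lists were chosen with earlier results of these data known, and a gene of the relay is not reported here. Named outside the members were, from each interferon list, the 2 genes of highest mean CPM and the 2 of smallest p over the comparisons of model with control, Rhy with model and DXM with model, and the 8 genes most correlated with the members' mean profile. Ube2l6, Ifitm2, Ifitm3, Isg20 and the Irg relatives of Igtp were named after their values were seen.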

Additional observations from a re-analysis of the deposited data

How the results depend on the processing

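By the labels each group held 3 mice, and whether model 1 and model 2 are separate mice was not tested. With the low-count filter, edgeR on all 12 libraries called no gene in any comparison, so fold changes are descriptions of these 12 libraries. Model 1 and model 2 were nearly alike, which narrows the spread within model, and control 3, model 3 and Rhy 1 differed from the rest in the position marker Hoxb13. Interferon genes were too scarce at this depth to be tested. Protein was not measured, and the dose of the sequenced Rhy mice and the strand setting of the counting are not given in the sources used here.

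Counts of genes at an adjusted p under 0.05 were 0 in every comparison by edgeR's quasi-likelihood test on all 12 libraries with Benjamini-Hochberg adjustment. DESeq2 on all 12 libraries gave 46 genes for model versus control, then 5 and 51 for Rhy and DXM versus model, then 32 and 1059 for Rhy and DXM versus control, and 393 (any difference among the 4 groups). DESeq2 on only the 2 groups compared gave 167, 44, 590, 2 and 395 in the same order of comparisons, and with model 1 and model 2 as 1 library 4, 17 and 172 for the 3 that use model. Without the low-count filter, genes with any count gave 1 in model against control, 1 in Rhy against control, 13 in DXM against control and 12 among the 4 groups. edgeR on only the 2 groups gave 1 in model against control and 2 in DXM against model. limma on log2(FPKM + 0.1) gave 2 in Rhy against model, 2 in DXM against model and 3 among the 4 groups. Without the 3 libraries low in Hoxb13 the counts were 2 in DXM against model and 1 among the 4 groups. With 1 library left out they ran from 0 to 1 in model against control, Rhy against model and the 4 groups (1 without model 3, and in the 4 groups also without DXM 3), and from 0 to 4 in DXM against control (4 without DXM 1, 1 without DXM 3).

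Counts of members at an unadjusted p under 0.05 were 1, 2, 1, 0 and 6 in that order of comparisons. In model against control they were 0 without the Hoxb13-low libraries, with upper-quartile scaling, with model 1 and model 2 as 1 library, on only the 2 groups and with limma on either FPKM scale, 2 for genes with any count and 3 with DESeq2 on only the 2 groups. In Rhy against model they were 0 without the Hoxb13-low libraries, 1 with model 1 and model 2 as 1 library, 4 on only the 2 groups, 6 with DESeq2 on only the 2 groups and 5 when model 1 and model 2 were also summed. In DXM against model DESeq2 on only the 2 groups gave 2. In DXM against control upper-quartile scaling gave 3 and only the 2 groups gave 2. With 1 library left out the counts ran from 0 to 2 in model against control, 0 to 2 in Rhy against model, 0 to 4 in DXM against model, 0 to 1 in Rhy against control and 0 to 8 in DXM against control.

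Replicate numbers were not taken as pairs, since only 6 of 18 same-number pairs correlated above 0.1 (-0.310 to 0.363). A replicate block gave 0 members at an unadjusted p under 0.05 in model against control, 4 in DXM against model and 1 in Rhy against control. With the block, log2 fold changes turned for Ifit2 in Rhy against model (-0.11) and for Irf7 (-0.12) and Igtp (0.032) in Rhy against control.

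Directions turned in 54 of 792 member values. Without the 3 Hoxb13-low libraries Ifit2 (-0.85) and Irf7 (-0.20) turned in Rhy against model, Igtp (0.17) in DXM against model, and Ifit1 (-0.35), Ifit3 (-0.47), Irf7 (-0.80), Oasl2 (-0.41) and Usp18 (-0.23) in Rhy against control. Upper-quartile scaling turned Igtp in DXM against model (0.0017), and scaling by relative log expression turned none. limma on log2(FPKM + 1) turned Ifit2 in Rhy against model (-0.18) and Irf7 (-0.12), Rsad2 (0.043) and Igtp (0.0053) in Rhy against control. On log2(FPKM + 0.1) the same values were -0.20, -0.12, 0.084 and 0.0081.

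Leaving out 1 library in turn gave these lowest and highest log2 fold changes where a direction turned. In model against control they were -0.47 to 0.30 for Ifit2, -1.12 to 0.070 for Rsad2 and -0.60 to 0.33 for Usp18 (highest without control 2), and -0.45 to 0.019 for Igtp (highest without control 1). In Rhy against model they were -0.82 to 0.57 for Ifit2 and -0.054 to 1.11 for Irf7 (lowest without Rhy 1), and -0.0064 to 0.38 for Igtp (lowest without model 1). In DXM against model they were -1.31 to 0.089 for Ifit1 (highest without DXM 3), -0.46 to 0.67 for Ifit3 (lowest without DXM 1) and -1.02 to 0.29 for Igtp (0.17 without model 3 and 0.20 without DXM 1). In DXM against control they were -1.83 to 0.037 for Ifit3 (highest without control 2) and -1.18 to 0.13 for Igtp (0.042 without DXM 1).

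In Rhy against control the ranges were -0.28 to 1.06 for Ifit1, -1.04 to 0.45 for Ifit2, -0.24 to 1.25 for Ifit3, -0.62 to 0.55 for Irf7, -0.11 to 0.60 for Oasl2, -0.46 to 0.73 for Rsad2 and -0.31 to 0.15 for Igtp. Turned values within them were -0.074 (without control 3) and -0.14 (without Rhy 1) for Ifit1, 0.14 (without Rhy 2) and 0.35 (without Rhy 3) for Ifit2, -0.18 (without control 3) and -0.15 (without Rhy 1) for Ifit3, -0.019 (without control 3) for Irf7, -0.098 (without control 3) for Oasl2, 0.12 (without Rhy 3) for Rsad2, and 0.11 (without control 2), 0.026 (without Rhy 2) and 0.028 (without Rhy 3) for Igtp. The cause was not tested. DESeq2 on only the 2 groups, its version with model 1 and model 2 summed, and the removal of the Hoxb13-low libraries were chosen after seeing the data.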
